A study of Mus musculus with 7 samples.

Results

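Broad cohesin peaks were defined as the autosomal Rad21 peaks of female mouse liver whose width, the end minus the start of the listed interval, was 1000 bp or more, so the members were chosen by their width in the Rad21 list. There were 2043 of them among 67228 autosomal Rad21 peaks and 68656 Rad21 peaks in all. Rad21 is a subunit of cohesin, and the list came from chromatin immunoprecipitation with sequencing (ChIP-seq) of liver nuclei from 8-week-old Crl:CD1(ICR) females, with an antibody to Rad21 (Abcam, Ab992) in 3 libraries. A list of 68667 CTCF peaks came from 4 libraries of the same kind made with an antibody to CTCF. The labels name no treatment, and every library was from a female. The libraries of each antibody were pooled before peaks were called, so neither the spread between mice nor the read depth of a library can be read from the lists, and every interval given here covers counting error alone. Whole liver holds several cell types, which a pooled list does not separate, and the lists contain no measure of expression.

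Cohesin is a ring-shaped complex that holds DNA strands together and extrudes chromatin loops, and CTCF is the zinc finger protein at whose oriented motif an extruding ring commonly halts. Rad21 peaks that overlap a CTCF peak are called CAC (cohesin-and-CTCF) and those that overlap none are called CNC (cohesin-non-CTCF), the latter being known from enhancers and promoters where mediator and tissue-specific factors also bind. A CTCF motif holds the ring at a narrow position, whereas an interval of 1 kb or more is long enough to span several nucleosomes, a CpG island or a group of factor binding sites. Promoters of CpG island type lie in long stretches rich in CpG dinucleotides that are usually free of DNA methylation.

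The sequences below show what lay at the summits of the members that stand at the extremes of the list. Each is 300 bp centred on a Rad21 summit and read from the plus strand of NCBIM37 (mm9). The first, chr13:37918415-37918714, lies at the Rreb1 promoter in the widest member with CTCF whose 300 bp window held no annotated exon, and its capitals mark CpG dinucleotides, of which there were 32. The next, chr8:129260618-129260917, belongs to the widest intergenic member with CTCF, no TSS (transcription start site) and no exon in the window, upstream of Irf2bp2 and chosen after its values were seen, and it held 7 CpGs, again in capitals.
Rreb1 promoter: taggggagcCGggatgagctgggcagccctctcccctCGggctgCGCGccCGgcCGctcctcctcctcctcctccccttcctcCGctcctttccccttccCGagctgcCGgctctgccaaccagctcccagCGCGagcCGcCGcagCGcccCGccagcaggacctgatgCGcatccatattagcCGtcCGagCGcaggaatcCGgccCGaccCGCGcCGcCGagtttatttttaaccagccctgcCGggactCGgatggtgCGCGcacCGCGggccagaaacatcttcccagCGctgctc
Irf2bp2 upstream: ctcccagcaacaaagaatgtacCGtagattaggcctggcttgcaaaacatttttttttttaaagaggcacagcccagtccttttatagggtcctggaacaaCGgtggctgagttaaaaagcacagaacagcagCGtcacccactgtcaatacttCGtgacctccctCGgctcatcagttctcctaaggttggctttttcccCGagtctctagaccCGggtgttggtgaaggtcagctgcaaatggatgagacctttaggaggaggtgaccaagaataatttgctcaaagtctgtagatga
The Amz2 promoter member at chr11:109286813-109287112 had the highest Rad21 fold among members with no exon in the window, and Barx2 at chr9:31779409-31779708 the highest among those with no TSS. Capitals mark in each the 20 bp that scored best against a CTCF matrix learned from the strongest CTCF peaks, whose consensus was GGCCACCAGGGGGCGCCAGA. The Barx2 stretch scored 17.8, above the calling threshold of 13.9 that 1% of flanking windows reached, and the Amz2 stretch scored 11.3, below it.
Amz2 promoter: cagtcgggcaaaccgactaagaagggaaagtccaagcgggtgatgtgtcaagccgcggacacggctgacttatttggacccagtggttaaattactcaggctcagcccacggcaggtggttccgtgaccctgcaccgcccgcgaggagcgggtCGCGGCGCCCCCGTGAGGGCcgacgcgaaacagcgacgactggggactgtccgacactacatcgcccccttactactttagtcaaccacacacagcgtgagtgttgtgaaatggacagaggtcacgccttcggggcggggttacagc
Barx2 upstream: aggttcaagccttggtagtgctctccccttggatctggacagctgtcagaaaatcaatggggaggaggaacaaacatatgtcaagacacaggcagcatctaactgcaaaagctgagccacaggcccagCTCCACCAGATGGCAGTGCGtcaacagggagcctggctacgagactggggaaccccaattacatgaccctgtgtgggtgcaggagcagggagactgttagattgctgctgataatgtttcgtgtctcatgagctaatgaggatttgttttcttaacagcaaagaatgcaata
The members without CTCF are represented by the widest of them, chr5:28382024-28382323 in an intron of Gm16719 upstream of Insig1, and by the intronic member of Igf1 at chr10:87348043-87348342. Capitals mark exact matches to any of 10 short factor motifs that were searched, an NFY match (CCAATCA) in the former and a FOXA match (TGTTTAC, here on the opposite strand) in the latter.
Insig1 upstream: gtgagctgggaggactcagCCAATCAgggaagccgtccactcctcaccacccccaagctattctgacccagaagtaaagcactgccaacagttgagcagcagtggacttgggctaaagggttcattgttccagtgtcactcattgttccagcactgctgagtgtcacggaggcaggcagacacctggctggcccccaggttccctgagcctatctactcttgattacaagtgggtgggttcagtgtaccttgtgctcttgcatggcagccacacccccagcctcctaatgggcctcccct
Igf1 intron: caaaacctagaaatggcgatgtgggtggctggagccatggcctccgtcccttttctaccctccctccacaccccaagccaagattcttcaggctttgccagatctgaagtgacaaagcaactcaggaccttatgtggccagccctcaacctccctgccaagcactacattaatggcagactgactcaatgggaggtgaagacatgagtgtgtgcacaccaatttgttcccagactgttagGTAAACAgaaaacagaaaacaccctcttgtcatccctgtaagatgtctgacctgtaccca

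The width of the members ran from 1000 to 2453 bp with a median of 1154 bp, against a median of 411 bp for the 65185 narrower autosomal peaks. Their Rad21 fold enrichment at the summit ran from 2.47 to 23.4 with a median of 6.02. Narrower peaks had a median fold of 4.83 and a maximum of 33.6, so the members were neither the strongest nor the weakest peaks of the list. These values come from the same peak calling as the width and serve as description only. The 87 peaks of 1000 to 1009 bp had folds from 2.98 to 22.3 and the 98 peaks of 990 to 999 bp from 3.31 to 16.3, and 58 of the former and 57 of the latter held a protein-coding TSS. Members made up between 2.65% (chromosome 7) and 3.59% (chromosome 18) of the Rad21 peaks of an autosome.

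Nearly all broad peaks carried CTCF. Of the 2043 members, 2003 overlapped a CTCF peak by at least 1 bp (98.0%, 95% Wilson interval 97.3 to 98.6%), where 73.4% of all autosomal Rad21 peaks and 72.7% of the narrower ones did. The difference between broad and narrower peaks was 25.4 percentage points (95% Newcombe interval 24.6 to 26.0). One CTCF peak was found in 1495 members, 2 in 473, 3 in 31 and 4 in 4 members, while 40 had none. More than 1 CTCF peak was present in 24.9% of members and 1.08% of narrower peaks. Among members with CTCF, the widest CTCF peak had a median width of 811 bp, against 450 bp at narrower peaks, and in 28.8% of all members it was itself 1000 bp or wider. CTCF peaks covered a median of 74.0% of the length of a member.

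A wide interval has more room for an overlap than a narrow one, so the share was also taken in a window of fixed size. A CTCF summit lay within 250 bp of the Rad21 summit in 1504 members (73.6%, 71.7 to 75.5%) and in 68.5% of narrower peaks, a difference of 5.13 points (3.15 to 7.03). Among peaks that held a protein-coding TSS the order was the opposite, with 73.9% of members and 76.7% of narrower peaks, a difference of -2.79 points (-5.30 to -0.393). Among peaks without a TSS members were again ahead, with 72.8% and 67.5%, a difference of 5.31 points (1.51 to 8.80). Of those without a TSS that overlapped CTCF by 1 bp, members were behind, with 77.5% and 95.5%, a difference of -18.0 points (-21.7 to -14.6). Over all peaks the order also turned within 100 bp, with 57.4% of members and 60.7% of narrower peaks, a difference of -3.34 points (-5.53 to -1.18). The median distance between the Rad21 summit and the nearest CTCF summit was 69 bp for members and 54 bp for narrower peaks, whereas the upper quartile was 265 bp for members and 658 bp for narrower peaks. By width class, the share with a CTCF peak by 1 bp went up at each step, from 48.5% below 300 bp to 91.9% at 750 to 999 bp and 99.5% at 1500 bp or more. The share with a CTCF summit within 250 bp peaked at 81.0% in the class of 500 to 749 bp, and was 73.6%, 73.0% and 75.3% in the 3 classes of members.

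**Figure D1:**
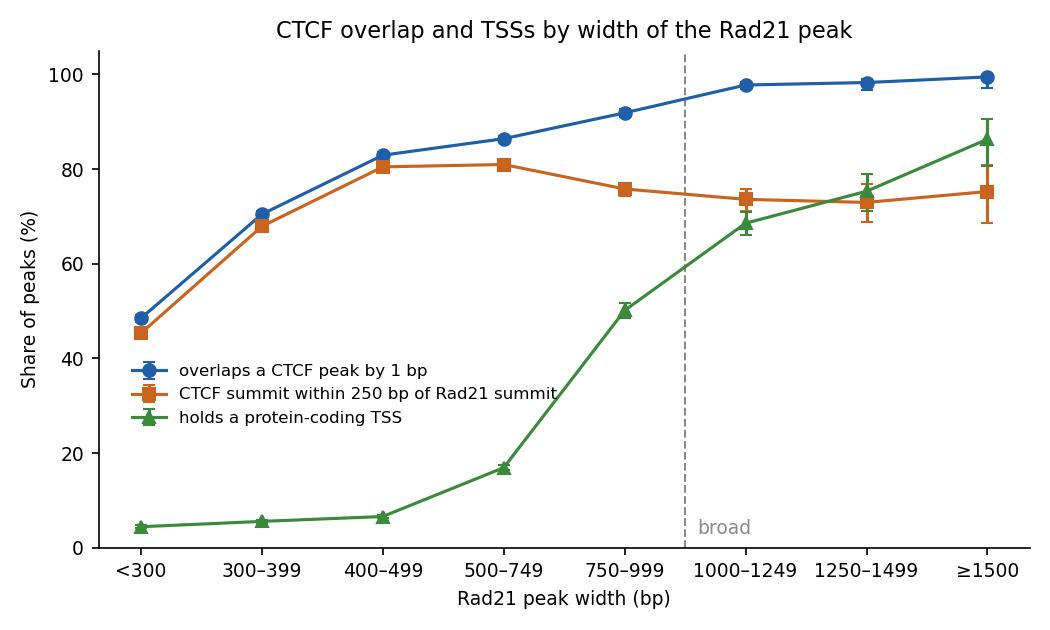
Share of autosomal Rad21 peaks (%) in each of 8 width classes (bp) that overlapped a CTCF peak by 1 bp (circles), had a CTCF summit within 250 bp of the Rad21 summit (squares) or held a protein-coding TSS (triangles), with 95% Wilson intervals. Overlap by 1 bp and TSSs rise with width, to 99.5% and 86.3% at 1500 bp or more, while the fixed window stays between 73.0% and 75.3% in the 3 classes of broad peaks to the right of the dashed line.

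Compared within bands of Rad21 fold, the members were above narrower peaks by the 1 bp overlap up to a fold of 10, and below them in the fixed window from a fold of 5 upward. In the band of Rad21 fold 5 to 10, which held 1337 members, a CTCF peak overlapped 98.4% of members and 90.0% of 16958 narrower peaks, a difference of 8.39 points (7.45 to 9.11). In the same band a CTCF summit lay within 250 bp in 75.2% of members and 86.0% of narrower peaks, a difference of -10.8 points (-13.2 to -8.50). Below a fold of 5 the members were ahead by either measure, with 96.4% of 506 members against 52.7% by 1 bp, and 60.7% against 46.8% in the fixed window. The 142 members with a fold of 10 to 15 and the 58 with 15 or more all overlapped CTCF, as did 6688 of 6705 and 7496 of 7498 narrower peaks of those bands, and the intervals of these differences included 0. In the fixed window the shares were 95.1% of members and 99.4% of narrower peaks at a fold of 10 to 15, a difference of -4.30 points (-9.20 to -1.77). At 15 or more they were 98.3% and 99.8%, a difference of -1.56 points (-8.98 to -0.140), with 1 member lacking a CTCF summit in the window.

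**Figure D2:**
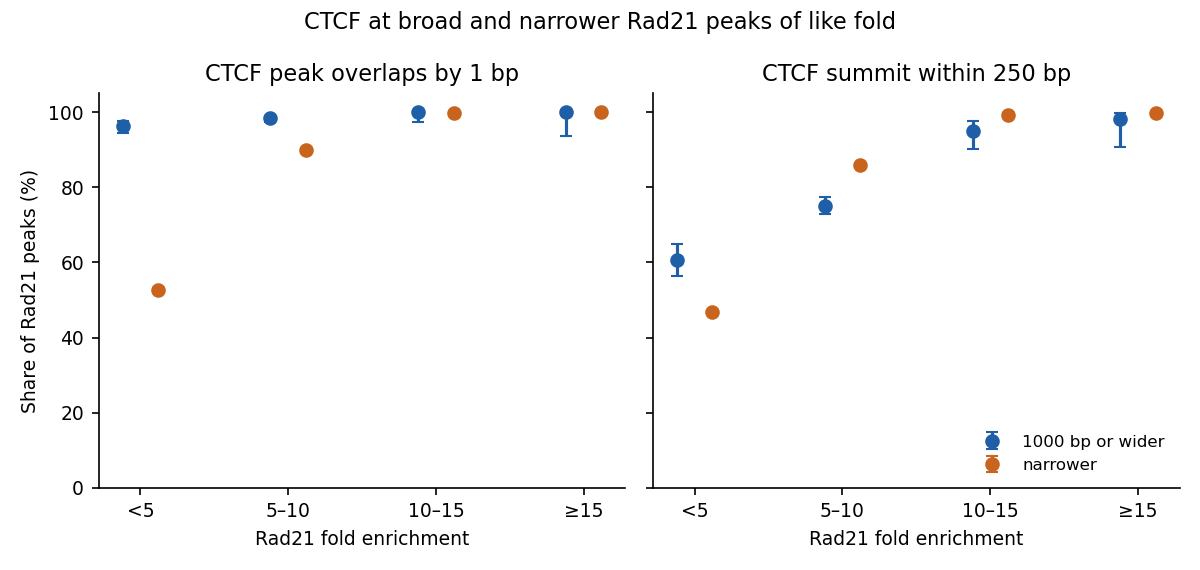
Share of Rad21 peaks (%) with a CTCF peak overlapping by 1 bp (left) or a CTCF summit within 250 bp of the Rad21 summit (right) in 4 bands of Rad21 fold enrichment, for peaks of 1000 bp or wider (blue) and narrower peaks (orange), with 95% Wilson intervals. Between a fold of 5 and 10 the broad peaks stand above the narrower ones on the left (98.4% against 90.0%) and below them on the right (75.2% against 86.0%).

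Over all peaks, a CTCF motif near the summit was less frequent in broad peaks than in narrower ones. On even-numbered autosomes, which had not been used to learn the matrix, a motif lay within 100 bp of the summit in 96 of 949 members (10.1%, 8.36 to 12.2%), against 31.9% of narrower peaks. The difference was -21.8 points (-23.6 to -19.6). With a lower threshold, reached by 5% of flanking windows, the shares were 29.8% of members and 47.4% of narrower peaks, a difference of -17.6 points (-20.4 to -14.5). Searched over their full length on all autosomes, 344 of the 2043 members held a match above the threshold (16.8%), and none of the 40 members without CTCF did, which allows a share of up to 7.50% by 3 counts of the total and 8.76% by the Wilson interval. The whole-length share is raised by the size of the interval, takes in the odd autosomes used to learn the matrix, and was not computed for narrower peaks.

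Most broad peaks sat on promoters. A protein-coding TSS lay inside 1466 members (71.8%, 69.8 to 73.7%), compared with 12.7% of all autosomal Rad21 peaks and 10.8% of the narrower ones. In a window that does not depend on width, 1513 members had their summit within 1000 bp of a protein-coding TSS (74.1%, 72.1 to 75.9%), as did 19.5% of narrower peaks, a difference of 54.5 points (52.6 to 56.4). This difference held in every band of fold, at 46.2 points below 5, 56.1 at 5 to 10, 52.3 at 10 to 15 and 43.7 at 15 or more. The share of peaks that held a TSS was 4.46% below 300 bp, 16.9% at 500 to 749 bp, 50.1% at 750 to 999 bp, 68.6% at 1000 to 1249 bp and 86.3% at 1500 bp or more. The summit lay in an untranslated region (UTR) of a protein-coding transcript in 25.7% of members and 6.20% of narrower peaks, in a coding exon in 13.1% and 5.11%, in an intron in 28.8% and 45.7%, and between genes in 29.8% and 41.0%. Only 20.5% of members had their summit over 10 kb from a protein-coding TSS, against 59.4% of narrower peaks.

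Promoter members reached further past the TSS than before it. Measured in the direction of transcription from the TSS nearest the summit, the 1466 members extended a median of 463 bp upstream and 728 bp downstream, and the 7054 narrower peaks that held a TSS 228 and 334 bp. Both extents add up to the peak width that chose the members, so the longer reach of members than of narrower peaks was set by the rule and is given as a description. Their summits lay downstream of that TSS in 67.7% of members and 68.8% of narrower peaks, a difference of -1.10 points whose interval included 0 (-3.77 to 1.48), with medians of 99 and 71 bp past the TSS. TSSs of more than 1 protein-coding gene were found in 153 promoter members (10.4%) and in 4.66% of narrower promoter peaks, a difference of 5.77 points (4.22 to 7.51). TSSs on both strands, the arrangement of a bidirectional promoter, were present in 148 (10.1%) and 4.32%. A wider interval can hold more TSSs for its length alone. The member with most genes, at chr2:37298132-37299227, held TSSs of Rabgap1, Zbtb26 and Zbtb6, and was named after its value was seen.

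**Figure D3:**
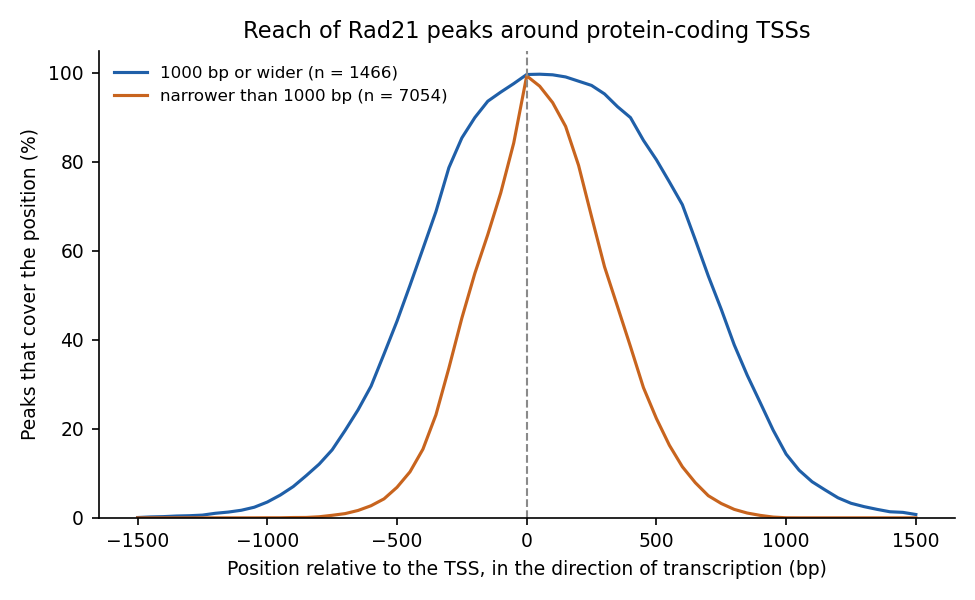
Percent of Rad21 peaks holding a protein-coding TSS that covered each position from 1500 bp upstream to 1500 bp downstream of the TSS nearest their summit, in steps of 50 bp, for 1466 broad (blue) and 7054 narrower (orange) peaks. At 500 bp downstream 80.5% of broad peaks still covered the position and at 500 bp upstream 44.2%, and the narrower peaks' 22.3% and 6.86% are lower by the width rule itself.

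The DNA under promoter members was rich in CpG over a long stretch. In the 300 bp around the summit the median GC content was 69.7% in promoter members and 65.7% in narrower promoter peaks, and the ratio of observed to expected CpG was 0.865 and 0.797. A CpG-rich stretch, meaning a run of overlapping 200 bp windows with at least 50% GC and a CpG ratio of at least 0.6, reached the summit in 1369 promoter members (93.4%) and in 85.7% of narrower promoter peaks, a difference of 7.64 points (6.04 to 9.08). With peaks that lacked such a stretch counted as 0, its median length was 940 bp over all 1466 promoter members (95% order-statistic interval 900 to 960 bp). Over all 7054 narrower promoter peaks it was 660 bp (660 to 680 bp). It rose with the width of the TSS-holding peak, from 560 bp below 300 bp to 770 bp at 750 to 999 bp, 880 bp at 1000 to 1249 bp and 1160 bp at 1500 bp or more. Within 150 bp of the summit an SP match (GGGGCGGGG on either strand) was present in 10.2% of promoter members and 11.1% of narrower promoter peaks, with an interval of the difference from -2.47 to 0.963 points. An ETS match (CCGGAAGT) was present in 2.66% and 4.83%, and an NFY match (CCAATCA) in 1.71% and 3.59%, with differences of -2.17 (-3.06 to -1.11) and -1.88 points (-2.60 to -0.983). Over all autosomal Rad21 peaks these matches stood in 2.93%, 1.01% and 2.94%. For CRE (TGACGTCA), NRF1 (GCATGCGC) and YY1 (AAGATGGC), present in 0.750%, 1.98% and 3.21% of promoter members and 0.427%, 0.872% and 2.43% of all Rad21 peaks, the interval of the difference from narrower promoter peaks included 0. Of the 4 motifs of liver factors, FOXA (TGTTTAC) was present in 0.750% of promoter members and 1.87% of narrower promoter peaks, a difference of -1.12 points (-1.60 to -0.465). CEBP (TTGCNNAA) was present in 4.43% and 6.28%, a difference of -1.85 points (-2.96 to -0.549). HNF4A and HNF1 matches stood in 0.409% and 0.750% of promoter members, and the intervals of their differences included 0. Over all autosomal Rad21 peaks FOXA, CEBP, HNF4A and HNF1 matches stood in 4.88%, 13.7%, 1.18% and 2.97%. None of these 10 intervals was adjusted for the number of motifs.

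Seen from the genes, 1612 of 21418 autosomal protein-coding genes had a TSS in a broad Rad21 peak (7.53%), 6845 in a narrower Rad21 peak alone and 12961 in none. The share with a broad peak went up with the CpG content at the first TSS of the gene. It was 1.65% of 9112 genes without a CpG-rich stretch there, 4.71% of 3142 genes with one under 500 bp, 10.2% of 6026 genes with 500 to 999 bp, 22.9% of 2519 genes with 1000 to 1499 bp (21.3 to 24.6%) and 19.8% of 611 genes with 1500 bp or more (16.8 to 23.1%). The last 2 intervals overlapped. A Rad21 peak of any width lay at a TSS in 65.5%, 66.1% and 53.5% of the genes in the 3 upper classes, so the step at 1000 bp was seen for broad peaks and not for Rad21 peaks as a whole. Genes with a broad peak at a TSS were long, with a median span of 44.1 kb (41.1 to 46.5 kb), against 24.1 kb for those with a narrower peak and 9.41 kb for those with none.

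**Figure D4:**
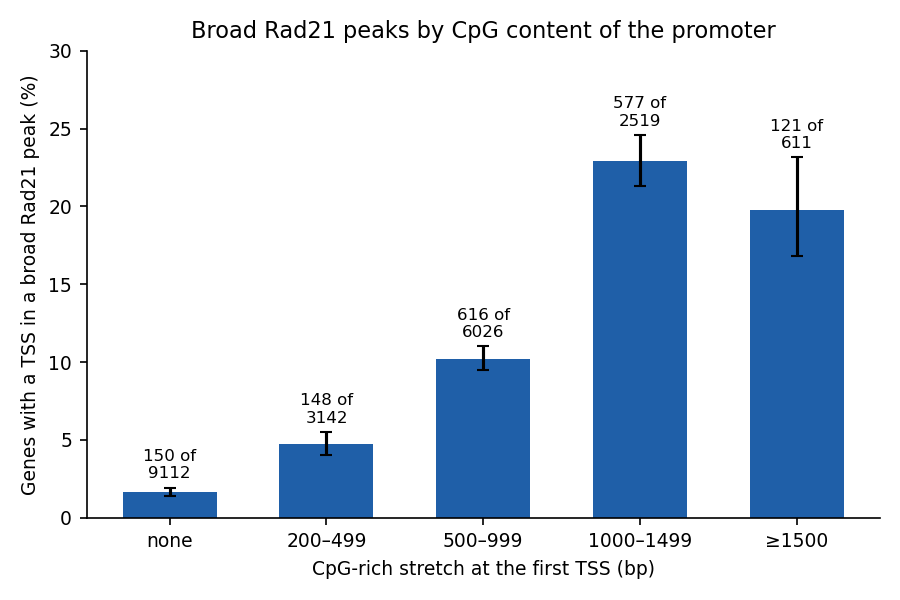
Percent of autosomal protein-coding genes with a TSS in a broad Rad21 peak, by the length of the CpG-rich stretch at the first TSS of the gene (bp), with the number of genes above each bar and 95% Wilson intervals. The share goes from 1.65% where there is no such stretch to 22.9% at 1000 to 1499 bp and 19.8% at 1500 bp or more.

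The 1461 promoter members with CTCF and the 542 members with CTCF but no protein-coding TSS differed in their DNA. The latter had a median GC content of 53.0% and a CpG ratio of 0.358, their summits lay a median of 22308 bp from a protein-coding TSS, and a CpG-rich stretch reached the summit in 34.1%. That is above the 15.2% of the 41040 narrower CAC peaks without a TSS, by 19.0 points (15.1 to 23.1). The strongest CTCF peak in them had a median fold of 5.42 (4.92 to 5.93), against 9.44 (9.31 to 9.55) at the narrower CAC peaks without a TSS and 6.98 at promoter members. A CTCF motif lay within 100 bp of the summit in 17.2% of 267 such members on even autosomes, against 48.3% of the narrower ones, a difference of -31.1 points (-35.2 to -26.1). Among all peaks without a TSS, with or without CTCF, it was 16.0% and 34.5%, a difference of -18.5 points (-22.3 to -13.7). In promoter members the share was 7.55% of 662, and 9.09% of 3091 narrower promoter peaks, with an interval of the difference from -3.61 to 0.925 points. At the threshold reached by 5% of flanking windows the promoter shares were 29.3% and 26.6%, and the difference of 2.71 points had the opposite sign, with an interval that again included 0 (-0.986 to 6.60). CTCF peaks covered a median of 58.0% of a member with CTCF and no TSS, and 78.9% of a promoter member.

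Only 40 broad peaks lacked CTCF, 35 of them without a protein-coding TSS. Width and Rad21 fold of the 35 had medians of 1124 bp and 5.15, and 30 (85.7%) lay over 10 kb from a protein-coding TSS. Of the 17091 narrower CNC peaks without a TSS 70.8% did, and the interval of the difference included 0 (-0.182 to 23.0 points). Their nearest CTCF summit was a median of 9372 bp away (5679 to 15136), against 5418 bp (5278 to 5551) for the narrower ones. A CpG-rich stretch reached the summit in 2 of the 35 (5.71%) and in 9.43% of the narrower ones, with an interval of the difference from -7.87 to 9.19 points. FOXA, a pioneer factor family of hepatocytes, had a match (TGTTTAC, either strand) within 150 bp of the summit in 6 of the 35 (17.1%, 8.10 to 32.7%), where 7.17% of the narrower CNC peaks without a TSS and 4.88% of all autosomal Rad21 peaks had one. The difference from narrower CNC peaks was 9.97 points, with an interval of 0.921 to 25.5 that rests on these 6 peaks. An HNF4A match (CAAAGTCCA) stood in 3 of the 35 and 2.07% of the narrower ones, an HNF1 match (GTTAATNA) in 3 and 4.11%, and a CEBP match (TTGCNNAA) in 3 and 18.6%. Over all autosomal Rad21 peaks the shares were 1.18% for HNF4A, 2.97% for HNF1 and 13.7% for CEBP. The interval of the difference excluded 0 for HNF4A (0.888 to 20.3 points) and included it for HNF1 (-1.16 to 18.3) and CEBP (-15.7 to 3.75). Of the other 6 motifs searched, NRF1, SP and NFY had a match in 1 of the 35 each and ETS, CRE and YY1 in none. The interval also excluded 0 for NRF1 (0.0235 to 14.1 points) on that single peak, so an interval past 0 carries little weight at these counts of matches, and none was adjusted for the 10 motifs.

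The widest member without CTCF, at chr5:28380928-28382504 (1577 bp, Rad21 fold 4.91), lay 15778 bp upstream of Insig1, whose product holds the sterol-sensing SREBP machinery in the endoplasmic reticulum. The others among the 10 widest without CTCF are named by the nearest protein-coding TSS, with the width and the distance of the summit from it. They were Ndfip1 (1435 bp, 11.6 kb), Egln3 (1399 bp, 109 kb), Arid1b (1399 bp, 127 kb), Cadm1 (1377 bp, 107 kb), Cpeb2 (1338 bp, 139 kb), Cblb (1282 bp, 30.4 kb), Banf2 (1269 bp, 40.7 kb), Tcerg1l (1260 bp, 141 kb) and Gm15409 (1248 bp, 0.473 kb). Their folds ran from 3.42 at Cblb, where the peak is intronic, to 7.50 at Cpeb2, where it lies 139 kb upstream of the nearest protein-coding TSS. Gm15409 was the only one of the 10 with a TSS inside the peak. Igf1, the growth-hormone-regulated growth factor, held one in an intron 24119 bp past its TSS, at chr10:87347805-87348851 (1047 bp, fold 4.10), and its other 11 Rad21 peaks were narrower.

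The 10 widest broad peaks all had CTCF, and all but the widest held a TSS. The widest of all, at chr19:23208386-23210838 (2453 bp, fold 4.11), had its summit between genes 6343 bp upstream of Klf9, a Krüppel-like transcription factor induced by glucocorticoid and thyroid hormone. It contained 4 separate CTCF peaks with folds of 6.63, 2.82, 2.35 and 3.75. The other 9 of the 10 widest held a TSS, namely those of Rreb1 (2373 bp), Ptprk (2150 bp), Sntb1 (2096 bp), Fzd1 (2083 bp), Gphn (2041 bp), Magi1 (2010 bp), Pde3b (2002 bp), Cpeb2 (1994 bp) and Cyp27a1 (1992 bp). Rreb1 is a zinc finger transcription factor, Fzd1 a Wnt receptor, Pde3b a phosphodiesterase of the insulin response and Cyp27a1 the sterol 27-hydroxylase of bile acid synthesis. The Rad21 fold of these 9 ran from 4.45 at Cyp27a1 to 5.99 at Magi1. Only Rreb1 had a single CTCF peak. At Cyp27a1, chr1:74758649-74760640, 3 CTCF peaks had folds of 4.74, 8.04 and 2.23, and no CpG-rich stretch reached the summit.

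The members of highest Rad21 fold were much narrower and had strong CTCF peaks. They were at the promoters of Snx18 (fold 23.4, 1035 bp), Atad2b (22.9, 1368 bp), Amz2 (22.3, 1001 bp) and Gsg2 (21.1, 1107 bp), and 58.5 kb upstream of Barx2 (22.3, 1011 bp). The strongest CTCF peak in them had a fold of 22.7, 27.8, 22.2, 26.0 and 23.5, in this order. Apart from the Klf9 member, 4 CTCF peaks were counted in the members at the promoters of Tmem125 (1798 bp) and of Ocln (1744 bp), the tight junction protein occludin, and in 1 member 98.7 kb upstream of Bod1 (1605 bp). The CTCF folds in these 3 were low, from 2.72 to 3.17 at Tmem125, 2.89 to 3.49 at Ocln and 2.85 to 3.52 at Bod1. A match to the CTCF matrix above the threshold was found in 5 of the members named here for width, fold or number of CTCF peaks. Whole peaks were searched, while the threshold was set in shorter flanking windows, so matches pass it more often by length alone. The Ptprk match lay between the 2 CTCF peaks of its member and under neither. The matches follow with the core letters in capitals, each read along the strand that carries the motif, to show how far they stood from the summits.
Snx18, chr13:114408904-114408923, minus strand, 6 bp from the summit: cgccacaAGGTGGCagcggc
Barx2, chr9:31779537-31779556, plus strand, 12 bp from the summit: ctccaccAGATGGCagtgcg
Gsg2, chr11:72951888-72951907, plus strand, 18 bp from the summit: agccggcAGGGGGCagatgc
Cyp27a1, chr1:74758730-74758749, plus strand, 1048 bp from the summit: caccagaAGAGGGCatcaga
Ptprk, chr10:27795551-27795570, minus strand, 1118 bp from the summit: agcctccAGGAGGCaccggg
In the 3 members of high fold the match lay at the Rad21 summit, and in the 2 wide members over 1 kb from it. The strongest CTCF peak at Gsg2, on an odd autosome, was among those used to learn the matrix, whose lowest fold was 23.9. A match at its summit is therefore not independent of the matrix. The CTCF peaks at Snx18 and Barx2 had folds below that limit.

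**Figure D5:**
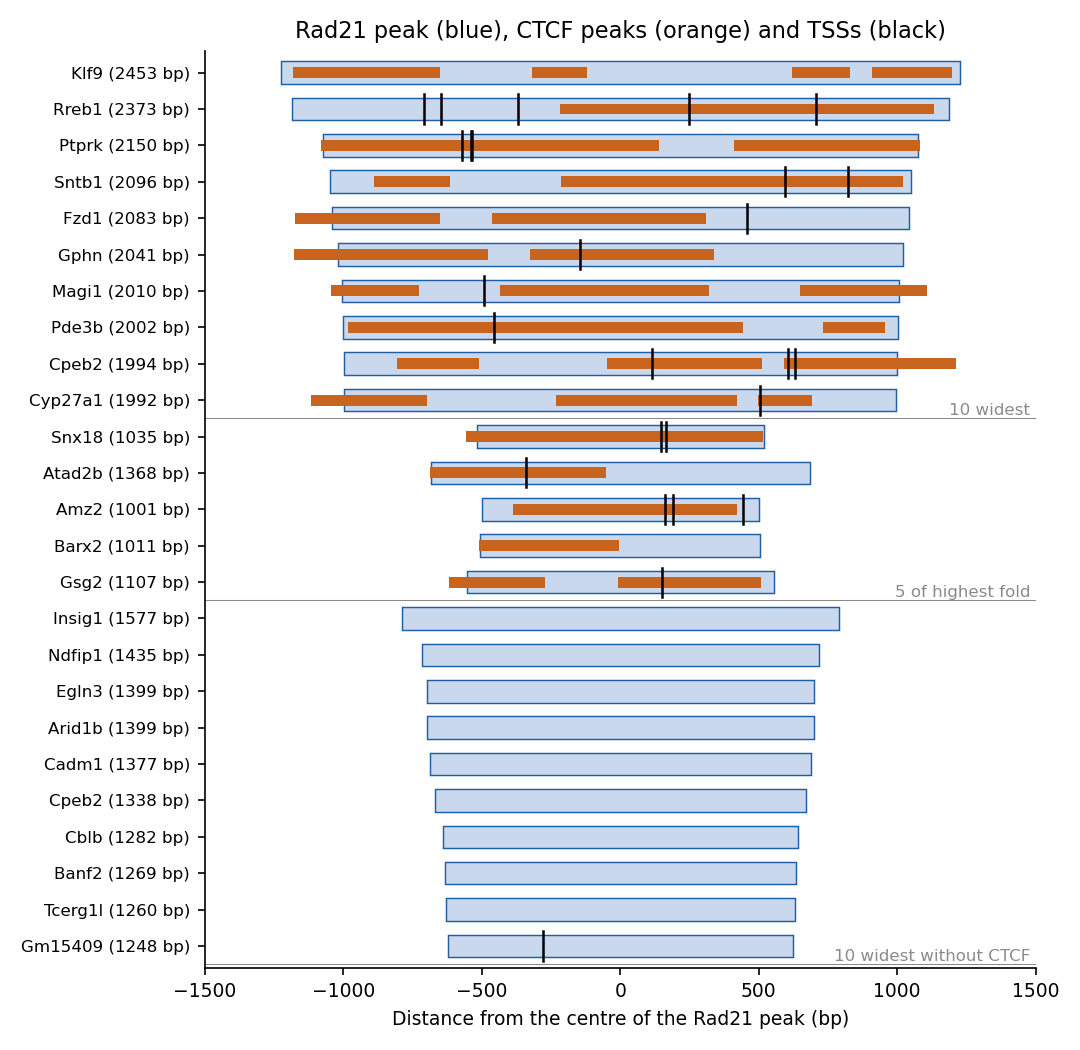
Rad21 peaks (blue boxes) drawn to scale around their centre (bp) with the CTCF peaks that overlap them (orange) and protein-coding TSSs inside them (black), for the 10 widest members, the 5 of highest Rad21 fold and the 10 widest without CTCF, labelled by the gene of the TSS nearest the summit. The widest peaks hold 1 to 4 CTCF peaks and, except at Klf9, a TSS, and the 10 without CTCF have a single TSS, at Gm15409.

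Broad peaks were counted at gene lists chosen for liver and set beside the share over all genes. Over all autosomal protein-coding genes, 2073 had a broad peak within the gene body extended by 5 kb to either side (9.68%). Of 20 hepatocyte transcription factors 6 had one (30.0%), of 12 genes of growth hormone signalling 4 (33.3%) and of 13 circadian clock genes 3. The counts were 1 of 24 plasma protein genes, none of 10 apolipoprotein genes, none of 12 acute phase genes, 1 of 20 genes of glucose, lipid and nitrogen metabolism, 2 of 16 xenobiotic metabolism genes, 1 of 12 immediate early genes and none of 13 ribosomal and housekeeping genes. A Rad21 peak of any width lay at 20 of the plasma protein genes and at all 10 apolipoprotein genes. The lists are small and these counts were not tested. None of 34 marker genes of Kupffer cells, liver endothelium, stellate cells, bile duct, neurons and skeletal muscle had a broad peak, although 21 had a Rad21 peak, and the count of 0 allows a share of up to 8.82% by 3 counts of the total. The Wilson bound is 10.2%, above the 9.68% of all genes.

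Among the hepatocyte factors the broad peak covered the TSS at Nr1h4, the bile acid receptor FXR (1135 bp, fold 5.26), at Nr0b2, the repressor SHP that FXR induces (1004 bp, fold 4.07), at Cebpa (1112 bp, fold 2.90) and at Tbx3 (1103 bp, fold 10.3). At Cebpa the summit lay 4 bp upstream of the TSS in a CpG-rich stretch of 2020 bp, with a single CTCF peak of fold 13.0. At Foxa2 the member lay 5831 bp past the TSS (1030 bp, fold 4.16), and at Nr1h3 it covered the TSS of the adjoining gene Madd. In growth hormone signalling the members covered the TSS of Stat5b, the main transducer of the hormone in liver (1402 bp, fold 6.31), and of its feedback inhibitor Socs3 (1645 bp, fold 8.35). In Stat5a it lay 10108 bp past the TSS (1017 bp, fold 5.67), and the Igf1 member was the only one of these 4 without CTCF. The broad peaks in the clock genes were at the TSS of Nr1d2 (1114 bp), a repressor of the clock loop, at Arntl, where the summit lay 165 bp past a TSS that the peak itself did not cover (1148 bp), and near Per2 at the TSS of Hes6 (1299 bp). The xenobiotic genes were Por, the electron donor of microsomal cytochromes P450 (1318 bp, fold 5.24), and Cyp27a1. The remaining list genes were Apoh, in a member that also held a TSS of Prkca (1639 bp), Acly, where the peak covered the TSS of Klhl11 (1098 bp), and Jund (1296 bp).

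Gene families sorted by the start of the symbol, which can take in genes of another kind and which were picked after their counts were seen and are given without a test, spread widely around the 7.53% of all genes. A TSS lay in a broad peak in 6 of 12 genes with symbols of the Lrp series (the LDL receptor-related Lrp5, Lrp6, Lrp10, Lrp11 and Lrp12, and Lrp2bp, which encodes a protein that binds another member of the series), in 8 of 29 sorting nexins, in 3 of 7 nuclear receptor coactivators (Ncoa2, Ncoa3 and Ncoa5) and in 7 of 25 nuclear receptors (Nr0b2, Nr1d2, Nr1h4, Nr2c1, Nr2c2, Nr3c1 and Nr3c2). It did so in 8 of 36 BTB zinc finger genes, 14 of 76 RING finger genes and 35 of 341 genes with Slc symbols, mostly solute carriers. At the low end were 3 of 98 cytochromes P450 (Cyp7b1, Cyp20a1 and Cyp27a1), 3 of 71 ribosomal protein genes (Rpl5, Rpl29 and Rpl30) and 1 of 21 UDP glucuronosyltransferases (Ugt2b36). No broad peak covered a TSS in 22 clade A serpins, 21 major urinary proteins, 39 homeobox cluster genes, 67 replication histones, 51 keratins, 326 vomeronasal receptors or 1106 odorant receptors. These counts of 0 allow shares of up to 13.6%, 14.3%, 7.69%, 4.48%, 5.88%, 0.920% and 0.271% by 3 counts of the total, in this order. The Wilson bounds are 14.9%, 15.5%, 8.97%, 5.42%, 7.00%, 1.16% and 0.346%, in the same order. The symbol Klf had 1 of 16 genes, Klf2.

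The genes with the most members in the extended body were mainly long gene models. Gm20388, a model spanning 4435 kb of chromosome 8, contained 11 among its 365 Rad21 peaks (3.01%), and Fgfr2, annotated here over 3009 kb, contained 5 among 137 (3.65%). Over all autosomal Rad21 peaks the share of members was 3.04%. Of shorter genes, Arhgap26 had 6 among 60 over 775 kb, Katnal1 had 4 among 15 over 121 kb, and Cblb, Etv6, Pacsin2, Arfip1, 0610040J01Rik and E130114P18Rik had 3 each.

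Some broad peaks had another broad peak nearby. Another member had its summit within 12500 bp in 70 of the 2043 (3.43%, 2.72 to 4.31%), in 34 groups of which 2 held 3 members. No like share was computed for an equal number of other Rad21 peaks. Whether members lay closer together or further apart than other peaks was not tested. The members of a group shared the nearest protein-coding gene in 27 groups, and in 15 of these 27 some members covered a TSS of that gene and others did not. Examples, chosen after their values were seen, were Egfr, the epidermal growth factor receptor, with a member on the TSS (1618 bp, fold 4.91) and another 9656 bp from it (1071 bp, fold 4.27), and Elovl5, a fatty acid elongase, with 1098 bp on the TSS (fold 4.55) and 1271 bp at 6808 bp from it (fold 7.21). At Man2a1, a Golgi mannosidase, members of 1165 bp on the TSS and 1522 bp in the intron lay next to each other. In 11 of the 34 groups no member held a TSS.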

How the data were processed

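ChIP-seq libraries of liver from 8-week-old female mice, 4 with an antibody to CTCF and 3 to Rad21, were mapped by the authors to mm9 with Bowtie2. They kept uniquely mapped reads, merged the libraries of each antibody, called peaks with MACS2, and removed blacklisted peaks and peaks made of identical reads. The 2 deposited lists hold for each peak an interval, a display score, a ratio (the fold enrichment of the summit over its surroundings), significance as −log10 of q and of p, of which the latter was not used, and the summit offset, all made by the authors from merged libraries. No column belongs to a single library, and 0 columns of per-sample values were left unused. A deeper merged library gives more and wider peaks, and unlisted regions may be bound below the threshold. Each library was assigned to its antibody from its title.

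Peaks were joined to the NCBIM37 genome and GENCODE annotation of the same build after 0 of 137323 peak ends were found beyond a chromosome end. TSSs are those of protein-coding transcripts. Shares have Wilson intervals, a count of 0 also has the limit given by 3 counts of the total, differences of shares Newcombe intervals, and medians order-statistic intervals, all at 95%, and they cover counting error only. No p-value was computed, since the peaks of a merged list are not replicates. The CTCF matrix of 20 bp was learned from 1000 summits on odd autosomes. Overlap, distance, interval and motif steps were tested on simulated data, with 0 wrong overlap counts of 2000, 478 of 500 Newcombe intervals that held the true difference, and 499 of 500 planted motifs found. The members, the gene lists, the families and the short motifs were chosen with earlier results of these data known. Peaks named are the 10 widest, the 10 widest without CTCF, the 5 of highest fold and the 5 with most CTCF peaks. Of these last, 4 had 4 CTCF peaks, and the other, Magi1, was tied with the rest of the 31 members that had 3. Genes named are list genes with a member and the 10 genes with most members, and any other name is marked as chosen after its values were seen. Alternatives were other widths, overlap rules, q thresholds, TSS windows, annotations, motif settings, gene windows and cluster distances, and, added later, even and odd autosomes alone. Software was Python 3.11.15, numpy 2.4.6, pandas 2.3.3, scipy 1.17.1, statsmodels 0.14.6, pysam 0.24.0, samtools 1.23.1 and matplotlib 3.10.9. Male and other libraries were not analysed here.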

Additional observations from a re-analysis of the deposited data

Results flagged for a closer look

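The X chromosome lay outside the rule that chose the members, and it held 12 Rad21 peaks of 1000 bp or more among 1419. All 12 overlapped a CTCF peak by 1 bp, 7 held a protein-coding TSS, and their widths ran from 1000 to 1509 bp. They entered only the alternatives that used every chromosome. The 12 were 0.846% of the Rad21 peaks on X (0.484 to 1.47%, Wilson interval), and the share on single autosomes ran from 2.65 to 3.59%.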

How the results depend on the processing

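Of 35 alternative values, 18 were counted as unchanged, 16 moved further and 1 changed sign. Unchanged meant a share inside its interval, a count within 1.5 times, or a difference of the same sign whose interval left out 0. The size of a difference did not enter this rule. The CTCF difference from narrower peaks was 25.4 points by 1 bp and 5.13 points with a CTCF summit within 250 bp, which counted as unchanged. The number of broad peaks was 5812 at a minimum width of 750 bp and 190 at 1500 bp. The share with CTCF was 94.0% and 99.5% at those widths, 89.9% with CTCF peaks of −log10 q of at least 10, 73.6% with a CTCF summit within 250 bp and 57.4% within 100 bp. Within 100 bp the difference from narrower peaks reversed to -3.34 points. The share with a protein-coding TSS was 57.7% at 750 bp, 86.3% at 1500 bp, 74.1% by summits within 1000 bp, 74.5% with TSSs of all genes, and 69.8% on even autosomes alone, an alternative added after seeing the data. The CTCF motif share was 29.8% at a 5% background rate and 7.38% within 50 bp. The share with another broad peak nearby was 0.294% at 5 kb and 9.20% at 25 kb. No paired analysis was possible because the lists are merged over libraries, and for the same reason no replicate could be left out. Depth per library is not in the lists, so absence of a CTCF peak at 40 members is a threshold call.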
